A study of Homo sapiens with 2 samples.

Results

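The genes of the Notch pathway described here are 10 of the 58174 genes listed in RNA-seq data of PLC-8024 cells, a human HCC cell line. They were taken by gene symbol and are the receptors NOTCH1, NOTCH2, NOTCH3 and NOTCH4, the ligands JAG1, JAG2 and DLL1, the DNA-binding factor RBPJ and the target genes HES1 and HEY1. Each symbol was found once in both tables. The comparison was between PLC-8024-CTR cells, which carry a control vector (genotype Control), and PLC-8024-GDF1 cells (genotype GDF1-overexpression), and it asked how the transcriptome changed with GDF1, a secreted ligand of the TGF-β superfamily. GDF1 was delivered by lentivirus and stably transduced cells were selected with puromycin, and nothing in the sources used here says whether the cells came from 1 clone. There was 1 library per group, so no difference has a replicate check, no p-value is given and all differences describe these 2 libraries.

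Notch signalling passes between touching cells. A ligand of the Jagged or Delta-like family on one cell binds a Notch receptor on its neighbour, the receptor is cut, and its intracellular part enters the nucleus, joins RBPJ and a Mastermind coactivator, and switches on HES and HEY genes, which encode transcriptional repressors. Without that signal RBPJ holds the same genes down with corepressors. In the liver, Notch is known for bile duct formation, where JAG1 and NOTCH2 steer progenitors towards the biliary fate, and TGF-β family signals can also act on HES1, HEY1 and JAG1.

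HES1 carries the best known RBPJ sites of the pathway. The 250 bases before the annotated start sites of HES1, HES4 and HES5 follow on the strand of each gene, taken from RefSeq on GRCh38.p14, with the RBPJ core TGGGAA in capitals wherever it occurs on either strand (TTCCCA on the opposite one). HES1 and HES4 are shown because they had the highest levels of the HES and HEY genes. HES5 is shown as a gene that holds the same core but was listed at 0.0001 TPM in both libraries. The same holds for HES3, which is not printed. The HES1 window lies at chr3:194135898-194136147, the HES4 window at chr1:1000098-1000347 and the HES5 window at chr1:2530264-2530513.
HES1: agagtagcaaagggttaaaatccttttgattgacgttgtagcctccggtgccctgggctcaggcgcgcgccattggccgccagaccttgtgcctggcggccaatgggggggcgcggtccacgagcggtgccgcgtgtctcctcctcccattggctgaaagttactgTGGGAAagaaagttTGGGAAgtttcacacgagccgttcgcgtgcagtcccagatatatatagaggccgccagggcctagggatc
HES4: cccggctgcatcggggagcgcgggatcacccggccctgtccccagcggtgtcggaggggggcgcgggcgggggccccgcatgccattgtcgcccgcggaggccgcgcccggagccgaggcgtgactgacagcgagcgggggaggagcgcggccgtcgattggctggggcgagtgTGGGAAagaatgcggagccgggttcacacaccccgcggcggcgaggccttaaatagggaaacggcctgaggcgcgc
HES5: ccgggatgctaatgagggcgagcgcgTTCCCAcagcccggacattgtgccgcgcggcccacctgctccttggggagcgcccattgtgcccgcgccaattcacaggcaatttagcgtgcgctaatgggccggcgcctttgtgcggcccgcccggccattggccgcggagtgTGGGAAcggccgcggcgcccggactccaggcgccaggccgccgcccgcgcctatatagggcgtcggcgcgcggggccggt
The HES1 window held the core 84 and 70 bases before the start site, both on the strand of the gene. The HES4 window held it 76 bases before the start, and the HES5 window held it 80 bases before the start and, on the opposite strand, 224 bases before it.

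Windows of 300 bases, from 250 before to 50 after the start, were then searched on both strands. TGGGAA occurred in 24.3% of 27305 promoters and in 1 of the 8 members with a window, HES1. Among the 10 HES and HEY genes, 9 had a window and 6 of them held it. The N box CACNAG, the kind of site that HES proteins bind, occurred in 37.98% of all promoters and in 6 of the 8 members, with 4 matches in HES1. CAGAC, the letters bound by SMAD proteins, occurred in 44.95% of all promoters and in 4 of the 8 members, namely NOTCH4, JAG1, RBPJ and HES1. DLL1 and HEY1 had no entry. These matches describe letters only.

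Levels are in TPM, transcript abundance corrected for length and scaled to the same total in each library, so they can be compared between genes. The 2 libraries summed to 999990 and 999995 TPM and listed 14138 and 13658 genes at 1 TPM or more, and TPM keeps no sequencing depth. Changes are log2 differences of TPM + 1, PLC-8024-GDF1 minus PLC-8024-CTR, a scale that understates the change of genes with low TPM, and "rose" and "fell" are kept for changes past 2-fold. Among the 14929 genes that reached 1 TPM in a library the median change was -0.20, and 9443 of them lay below 0. Of these 14929 genes, 4.82% rose and 9.61% fell. With TPM rescaled so that genes of at least 5 TPM centred on 0, 1040 genes rose and 1022 fell, against 720 and 1434 before, and with the trend on GC content removed 1030 rose and 788 fell. The change followed GC content, from a median of -0.48 in the fifth of protein-coding genes with the lowest GC content to 0.11 in the highest. The introduced GDF1 was listed at 2.096 and 4.64 TPM, while CERS1, which shares its locus, was listed at 13.3 and 9612 TPM. All 8 hepatocyte markers examined reached 1 TPM and 5 of them fell, ALB, APOA1 and TTR included, against 2 with rescaled TPM and 3 with the GC trend removed. APOA1 and TTR stayed past 2-fold under both, while ALB came within it (-0.998 and -0.73). The summed TPM of the 8 markers was 8072 and 4680. Of 5 immune markers 2 reached 1 TPM, LYZ and CD68, PTPRC was at 0.0001 TPM in both libraries, and the summed TPM was 332 and 227. The part of these markers in the values of the Notch genes was not tested, and in bulk RNA fewer cells of a type and less RNA per cell cannot be told apart.

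No member rose or fell past 2-fold with the pseudocount of 1. Of the 10 members, 9 had at least 1 TPM in a library, and all 9 stayed within 2-fold, 5 above and 4 below 0. Their median change was 0.19, set beside -0.20 for all genes, and with the GC trend removed it was 0.095 beside 0.044. With the plain TPM ratio, which does not shrink low values, NOTCH4 and JAG2 rose and no member fell, where 7.88% of 14810 genes rose and 16.1% fell. Each member kept its sign when TPM was rescaled, when the GC trend was removed and when the pseudocount was 0.1.

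**Figure D1:**
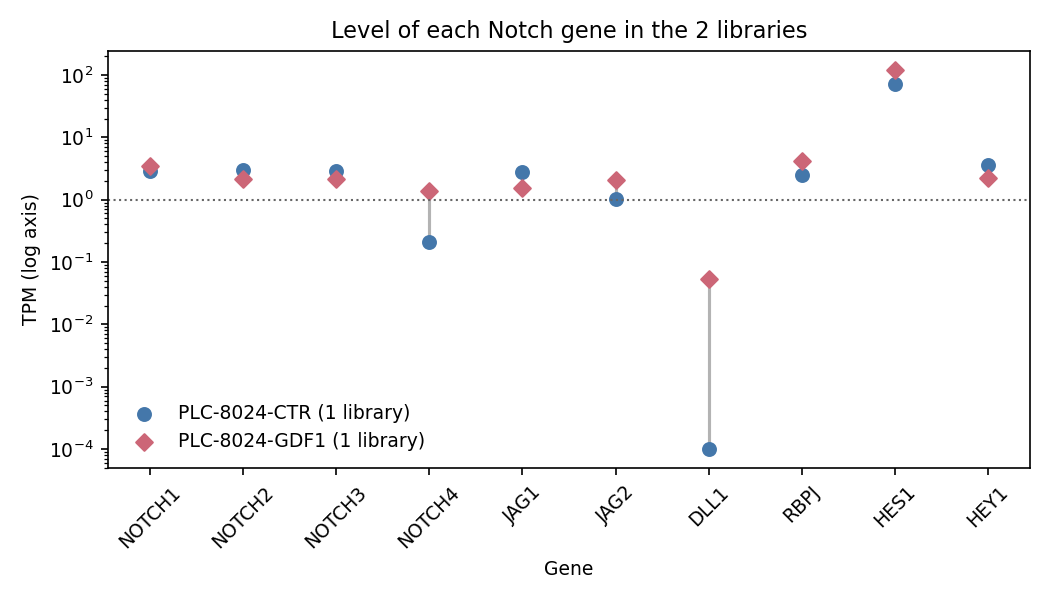
TPM of the 10 members on a log axis, with a circle for the PLC-8024-CTR library and a diamond for the PLC-8024-GDF1 library. The dotted line marks 1 TPM. HES1 stands far above the others at 72.5 and 121 TPM, and DLL1 lies below the line in both libraries (0.0001 TPM stands in place of 0).

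The receptors were at low levels, 3 of them close together and NOTCH4 lower. In PLC-8024-CTR cells NOTCH2, the receptor tied to bile duct formation, was listed at 3.04 TPM, NOTCH1 at 2.92 TPM and NOTCH3 at 2.86 TPM, and NOTCH4 at 0.21 TPM. In PLC-8024-GDF1 cells NOTCH1 was listed at 3.47 TPM, NOTCH3 at 2.16 TPM, NOTCH2 at 2.14 TPM and NOTCH4 at 1.36 TPM. In TPM as deposited, the 3 receptors that lay together in the control library lay further apart in the other. NOTCH1 was above, with NOTCH2 and NOTCH3 side by side. With the GC trend removed the changes were 0.095 for NOTCH1, -0.082 for NOTCH2 and -0.38 for NOTCH3, so that NOTCH2 lay between NOTCH1 and NOTCH3. The 4 receptors summed to 9.03 and 9.14 TPM. Gene positions are those of GRCh37.

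NOTCH4 (ENSG00000204301, chromosome 6, 32162620 to 32191844, minus strand), a receptor best known from endothelial cells, had a change of 0.96, the largest of the members on this scale, although RBPJ and HES1 exceeded it with the GC trend removed, where NOTCH4 was at 0.93. On the plain scale its TPM was 6.47 times higher, a log2 ratio of 2.69, and its change was 2.24 with the pseudocount of 0.1 and 1.09 with rescaled TPM. It took 2.33% of the summed receptor TPM in PLC-8024-CTR cells and 14.9% in PLC-8024-GDF1 cells, or 0.999% and 4.66% when NOTCH2 was added up with its near copies. In the annotation NOTCH4 shares 681 bases on the same strand with GPSM3, which was listed at 4.29 and 4.64 TPM, and reads from these bases could have been counted on either gene. Of 5 endothelial markers, 1 reached 1 TPM, PECAM1 at 23.2 and 22.2 TPM, CDH5 stayed under 0.27 TPM, and VWF, KDR and TEK were at 0.0001 TPM in both libraries. The summed TPM of these markers was 23.5 and 22.4.

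NOTCH1 (ENSG00000148400, chromosome 9, 139388885 to 139440500), the receptor known for its mutations in T-cell leukaemia, changed by 0.19. It held 32.3% of the receptor TPM in PLC-8024-CTR cells and 38.02% in PLC-8024-GDF1 cells. With the near copies of NOTCH2 counted in, which made up most of that sum, NOTCH1 held 13.9% and then 11.9%. NOTCH3 (ENSG00000074181, chromosome 19, 15269849 to 15311806), a receptor of vascular smooth muscle and many tumours, changed by -0.29 and held 31.7% and then 23.7%. The longest transcript has 63.3% G or C in NOTCH1 and 63.1% in NOTCH3, where the trend values of genes of the same GC content were 0.10 and 0.09, and the change of NOTCH3 with the trend removed was -0.38. Of 6 mesenchymal markers, 2 reached 1 TPM, COL3A1 and DES, both lower in PLC-8024-GDF1 cells. Under 1 TPM, COL1A1 (0.20 and 0.84 TPM) and PDGFRB (0.37 and 0.51 TPM) were higher there. COL1A2 and ACTA2 were at 0.0001 TPM in both libraries. The summed TPM of the 6 markers was 5.59 and 3.50.

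NOTCH2 (ENSG00000134250, chromosome 1, 120454176 to 120643366) changed by -0.36, and its share of receptor TPM moved from 33.7% to 23.4%. Its longest transcript has 49.4% G or C, and genes of that GC content had a trend value of -0.28. With the trend removed the change of NOTCH2 was -0.082. The shares are of TPM as deposited. NOTCH2NL, a partial human-specific duplicate, was listed at 12.0 and 20.1 TPM, a change of 0.70. The sum of NOTCH2 and NOTCH2NL, most of it NOTCH2NL, changed by 0.53. The sign of this sum follows NOTCH2NL, so it cannot decide the direction of NOTCH2. How many reads of one gene were counted on the other was not tested. In the longest transcript of NOTCH2, 1.59% of all 100-base windows also occurred in NOTCH2NL genes of the annotation, and in that of NOTCH2NLA, the gene with the identifier listed as NOTCH2NL, 5.96% occurred in NOTCH2.

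The ligands among the members had opposite signs. JAG1 (ENSG00000101384, chromosome 20, 10618332 to 10654647), the ligand mutated in Alagille syndrome, had 2.75 TPM in PLC-8024-CTR cells and 1.55 TPM in PLC-8024-GDF1 cells, a change of -0.56. JAG2 (ENSG00000184916, chromosome 14, 105607319 to 105635161), its paralog, was listed at 1.01 and 2.03 TPM, a change of 0.59. JAG1 thus stood at 2.72 times the level of JAG2 in the control library and at 0.76 times its level in the other. Their order turned over in TPM as deposited. Genes of the GC content of JAG1 and of JAG2 had trend values of -0.28 and 0.13. With the trend removed the changes were -0.28 for JAG1 and 0.46 for JAG2, and their order of level under that setting was not computed. The plain ratio of JAG2 was 2.01, just past 2-fold, and that of JAG1 was 0.56.

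DLL1 (ENSG00000198719, chromosome 6, 170591294 to 170615653) was at 0.0001 TPM, the value that stands for 0, in PLC-8024-CTR cells and at 0.054 TPM in PLC-8024-GDF1 cells. It did not pass 1 TPM and no fold is given. FAM120B, which overlaps 15863 bases of it on the other strand, was listed at 10.7 and 11.1 TPM, and reads of the overlap cannot be told apart where strand is not used. Of 5 further ligands 3 reached 1 TPM and none rose or fell. The Delta-like ligands DLL3 and DLL4 were higher than JAG1, JAG2 and DLL1 in both libraries. DLL4, known from vessel sprouting, was listed at 8.40 and 5.46 TPM, a change of -0.54, and DLL3, a ligand described as inhibitory, at 6.85 and 6.79 TPM. DLL3 and DLL4 together with the members JAG1, JAG2 and DLL1 summed to 19.0 and 15.9 TPM, of which DLL4 held 44.2% and then 34.4% and DLL3 36.0% and then 42.8%.

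RBPJ (ENSG00000168214, chromosome 4, 26165077 to 26436753), on which all 4 receptors converge, had 2.45 TPM in PLC-8024-CTR cells and 4.10 TPM in PLC-8024-GDF1 cells, a change of 0.56 and a plain ratio of 1.67. Its longest transcript has 36.8% G or C, and genes of that GC content had a trend value of -0.48. RBPJ lay 1.04 above that trend, which puts it past 2-fold with the trend removed. None of its 100-base windows occurred in the 5 RBPJ pseudogenes and paralogs compared, and those listed in the files were at or under 0.049 TPM. The level of RBPJ was close to that of NOTCH1 in both libraries, above 19.2% of the expressed genes of the control library and 33.7% of those of the other.

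HES1 (ENSG00000114315, chromosome 3, 193853937 to 193856521), the gene of the paired TGGGAA core, was the most abundant member. Its level was 72.5 TPM in PLC-8024-CTR cells and 121 TPM in PLC-8024-GDF1 cells, above 87.3% and 92.0% of expressed genes. Its change was 0.74, larger than that of 91.6% of all genes with at least 1 TPM, and its plain ratio was 1.68. It lay 1.01 above the GC trend and was thus past 2-fold with the trend removed. HEY1 (ENSG00000164683, chromosome 8, 80674606 to 80680092), a target in the same repressor family, was listed at 3.62 and 2.21 TPM, a change of -0.53. With the GC trend removed the change of HEY1 was -0.16, genes of its GC content having a trend value of -0.37. The 2 targets therefore had opposite signs, and the level of HES1 was 20.0 times that of HEY1 in the control library and 55.0 times in the other.

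**Figure D2:**
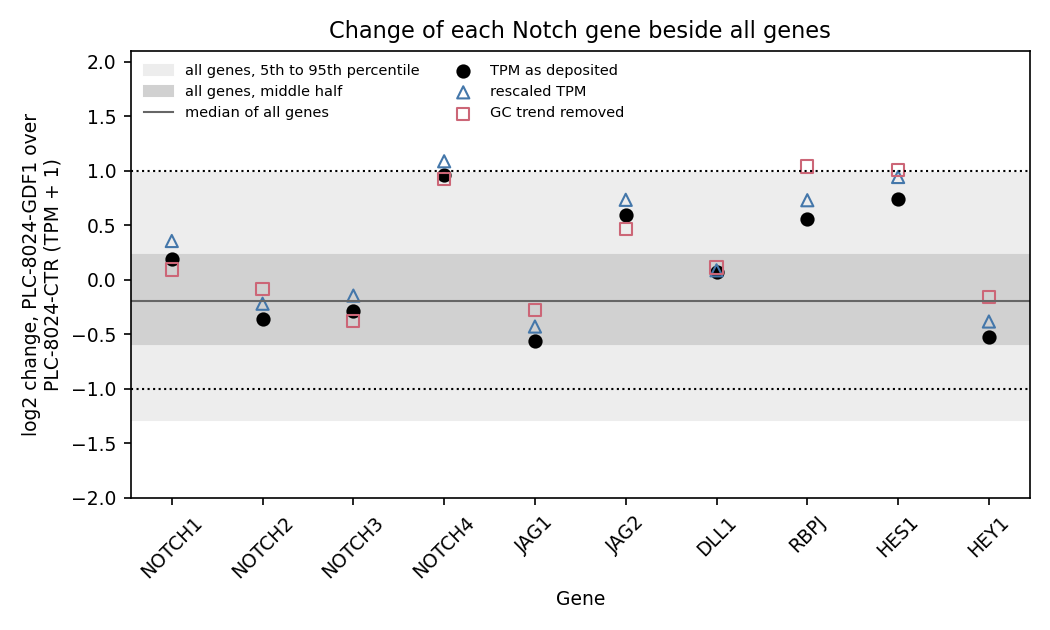
log2 change of each member on the TPM + 1 scale as deposited (filled circles), with rescaled TPM (triangles) and with the GC trend removed (squares). The shaded bands span the 25th to 75th and the 5th to 95th percentile of all genes (-1.29 to 0.98) and dotted lines mark 2-fold. NOTCH4, RBPJ and HES1 touch or cross the upper line under 1 of these settings each, and no member nears the lower one.

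The other HES and HEY genes were examined next. HES4, another repressor of the family, was the most abundant at 107 and 174 TPM, a change of 0.70, close to the 0.74 of HES1. HES4 kept its sign with the GC trend removed, where its change was 0.12, genes of its GC content having a trend value of 0.57. HES7, the segmentation clock gene, rose from 4.58 to 10.7 TPM (1.07), although its change was 0.97 with the GC trend removed. HES6, which opposes HES1, was listed at 31.6 and 27.8 TPM, with a change of -0.18 that turned to 0.024 with rescaled TPM. HES2 was listed at 0.30 and 1.03 TPM and HEYL at 1.15 and 1.43 TPM. HES3 and HES5 were at 0.0001 TPM in both libraries and HEY2 stayed under 0.15 TPM. The 10 HES and HEY genes, members included, summed to 221 and 339 TPM, 1.53 times higher in PLC-8024-GDF1 cells. HES1 and HES4 together held most of both sums, with 32.8% and 48.5% in PLC-8024-CTR cells and 35.8% and 51.4% in PLC-8024-GDF1 cells.

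The rest of the pathway was described by lists of 76 genes, 63 of which reached 1 TPM in a library. Of the 63, 3 rose and 5 fell, and 55 stayed within 2-fold. The shares of all genes that rose (4.82%) and fell (9.61%) stand beside these counts. Their median change was -0.18, close to the -0.20 of all genes, and turned to 0.013 with rescaled TPM.

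Genes that act on the receptor before it signals were mostly within 2-fold. Among 6 glycosylation genes, 1 fell, EOGT, which adds a sugar to the receptor's outer domain, from 4.88 to 1.82 TPM (-1.06). Rescaling (-0.92) and removal of the GC trend (-0.60) each brought it within 2-fold. RFNG, a fringe enzyme, was listed at 45.4 and 50.2 TPM and POFUT1, which fucosylates the receptor, at 16.7 and 13.3 TPM. None of the 9 cleavage genes rose or fell. FURIN, which cuts the newly made receptor, was listed at 438 and 360 TPM and APH1A, a subunit of γ-secretase, at 84.99 and 65.6 TPM.

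Among 13 endocytosis and ubiquitin ligase genes, 11 had at least 1 TPM, 5 were below 0 (5 with rescaled TPM, and 3 with the GC trend removed) and 1 fell. This was NUMB, an inhibitor of Notch, which fell from 7.77 to 2.04 TPM (-1.53) and stayed past 2-fold under each scaling tried, at -1.39 with rescaled TPM and -1.14 with the GC trend removed. DTX1, a Deltex ligase at 2.60 and 0.95 TPM, was within 2-fold (-0.88) but passed it with the GC trend removed (-1.06), with the plain ratio (-1.45) and with the pseudocount of 0.1 (-1.36). The paralog of NUMB, NUMBL, was listed at 4.57 and 5.27 TPM. MIB2, a ligase that acts on the ligands, was listed at 120 and 207 TPM, a change of 0.78, and DTX2, another Deltex ligase, at 45.04 and 58.2 TPM.

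Among the nuclear partners of RBPJ, the median changes lay a little below that of all genes. Of 8 coactivator genes with at least 1 TPM, 7 were below 0 (5 with rescaled TPM, and 5 with the GC trend removed) and 1 fell, the Mediator kinase CDK8, which acts on the Notch intracellular domain, from 8.12 to 1.17 TPM (-2.07). It stayed past 2-fold with rescaled TPM (-1.95) and with the GC trend removed (-1.70). CCNC, which encodes its cyclin partner, was listed at 14.3 and 18.9 TPM. The coactivators KAT2A and SNW1 were listed at 115 and 114 TPM and at 17.7 and 16.0 TPM.

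Of 13 corepressor genes with at least 1 TPM, 11 were below 0 (9 with rescaled TPM, and 10 with the GC trend removed) and 2 fell. HDAC1, a histone deacetylase shared by many repressor complexes, fell from 86.9 to 29.9 TPM (-1.51) and passed 2-fold under each scaling, at -1.31 with rescaled TPM and -1.19 with the GC trend removed. NCOR1, a platform for such complexes, fell from 21.5 to 10.2 TPM (-1.01) and came within 2-fold after rescaling (-0.82) and after removal of the GC trend (-0.65). CTBP1, the most abundant of the list, was listed at 204 and 177 TPM. The median of the corepressors was -0.34 and that of the coactivators -0.32, and the median GC trend of these genes was -0.26 and -0.24.

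None of 5 further target genes rose or fell. CCND1, which encodes a G1 cyclin, was listed at 60.3 and 69.7 TPM and the cell cycle inhibitor CDKN1A at 35.0 and 33.3 TPM. NRARP, a feedback inhibitor and direct target of Notch, was listed at 3.26 and 2.05 TPM, a change of -0.48, the same sign as HEY1.

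Of 6 biliary and progenitor genes, 4 had at least 1 TPM and 2 rose. KRT7 rose from 3.004 to 7.98 TPM (1.17) and KRT19 from 4.46 to 10.9 TPM (1.13), both keratins of bile duct cells, and both passed 2-fold with rescaled TPM and with the GC trend removed. SOX9, a biliary transcription factor and Notch target, was listed at 4.50 and 5.29 TPM. SPP1 was at 0.0001 TPM in both libraries and EPCAM at 0.17 and then at 0.0001 TPM. The study tested KRT7, KRT19, SOX9 and EPCAM in these cell lines, so this list is not independent of it.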

How the data were processed

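RNA-seq of 1 PLC-8024-CTR library and 1 PLC-8024-GDF1 library was used. Per the labels and the study's methods, the authors filtered reads with Trimmomatic 0.36, aligned them to hg19 with HISAT2 2.1.0, quantified them with StringTie 1.3.3b and deposited 1 TPM value per gene and library, with 0.0001 in place of 0. Genes carry Ensembl identifiers, although RefSeq is the annotation named in the methods. Whether reads were counted by strand is not given in the sources used here. Read counts were not analysed here, so no counting error or test is given.

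From these values log2 changes were computed with a pseudocount of 1 TPM, and a gene was called past 2-fold. Positions, GC content and overlaps came from GENCODE release 44 on GRCh37, which held 55726 of 58174 identifiers and all 10 members. The GC trend was a lowess fit (span 0.3). Promoters came from RefSeq on GRCh38.p14. Python 3.11.15, numpy 2.4.6, pandas 2.3.3, statsmodels 0.14.6 and matplotlib 3.10.9 were used, and the steps were tested on simulated data.

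The members and lists were chosen with earlier results of these data known. Named were all members, listed genes past 2-fold, the 2 most abundant genes of each list, near copies and overlapping genes with at least 1 TPM, GDF1, CERS1 and genes of the marker lists. Some listed genes are counted but not reported by name here. NUMBL, DTX1, CCNC, NRARP, SOX9, SPP1, EPCAM, HES2, HES3, HES5, HEY2, HEYL, NALT1 and SEC16A were chosen after their values were seen. So were the neighbours REG4, SLC1A6, LINC02298, ATP13A3 and AC009686.2.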

Additional observations from a re-analysis of the deposited data

How the results depend on the processing

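No paired analysis was possible because each group has 1 library, and for the same reason no library could be left out. A change was judged by its sign and by whether it passed 2-fold, a count by a tolerance of 1.5 times its first value, and a median by its sign and whether it moved by under 1.5-fold. The count of members past 2-fold, 0 at first, was 1 with a pseudocount of 0.1 (NOTCH4), 2 with the plain TPM ratio (NOTCH4 and JAG2), 1 with rescaled TPM (NOTCH4) and 2 with the GC trend removed (RBPJ and HES1), each of them upward. Over all genes, 1167 of 14929 rose with a pseudocount of 0.1, 1167 of 14810 with the plain ratio, 1040 of 14929 with rescaled TPM and 1030 of 14640 with the GC trend removed, against 720 of 14929 at first. It stayed at 0 with at least 5 TPM and with no filter on low values. The sum of NOTCH2 and its near copies, most of it NOTCH2NL, changed by 0.53, against -0.36 for NOTCH2 alone. The receptor shares moved with that sum, which then held 71.5% and 76.0%. NOTCH1 then held 13.9% and 11.9%, NOTCH3 13.6% and 7.40% and NOTCH4 0.999% and 4.66%. Of the other pathway genes, 5 fell at first, 8 with a pseudocount of 0.1, 8 with the plain ratio and 3 with rescaled TPM, and their median reversed to 0.013 with rescaled TPM. Over all genes, 1434 of 14929 fell at first and 2315 of 14929 with a pseudocount of 0.1. With the plain ratio 2380 of 14810 fell, and with rescaled TPM 1022 of 14929. Rescaling multiplies every TPM of PLC-8024-GDF1 by 1.15. The cause of the other moves was not tested. DLL1 has no plain ratio, because it was at 0.0001 TPM in PLC-8024-CTR. TPM carries no depth, so the counting error of the members is unknown, and of them HES1 alone was above 5 TPM.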

Other observations

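The lncRNA NALT1, whose annotated span begins 164 bases from that of NOTCH1 on the other strand, rose from 6.07 to 21.6 TPM, a change of 1.67. NOTCH1 itself was listed at 2.92 and 3.47 TPM, and SEC16A, the next expressed protein-coding gene on the strand of NOTCH1, at 27.9 and 29.3 TPM. NALT1 was chosen from the nearest expressed genes of all members after its value was seen. The part of reads from NOTCH1 in its level was not tested. Of those neighbours, LINC02298 (1.18) and AC009686.2 (1.22) also rose, REG4 (-1.70), SLC1A6 (-3.96) and ATP13A3 (-1.25) fell, and the rest stayed within 2-fold. Among all genes with at least 1 TPM in a library, 4.82% rose and 9.61% fell.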
